A study of Mus musculus with 80 samples.

Results

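Fos, Fosb, Jun, Junb, Egr1, Egr2, Egr3, Ier2, Nr4a1 and Klf6 are immediate early transcription factors, and they are 10 of the 32764 genes counted in 80 RNA sequencing libraries of mouse tissue. They were listed by name after Fosb, Egr1 and Klf6 had been seen to differ between UCP1 KO and dKO mice in inguinal white adipose tissue (iWAT). The values of that comparison chose the members, so they are given here as a description and without a test. All 10 members had enough counts to be tested in iWAT, brown adipose tissue (BAT) and muscle. In liver 8 did, and Egr2 and Egr3 were too low.

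Immediate early genes are transcribed within minutes of a stimulus, such as a growth factor, a hormone, a nerve signal or stress, by transcription factors that are already present in the resting cell. Their own products are mostly transcription factors that switch on a later wave of genes. FOS and JUN proteins pair through leucine zippers to form AP-1, EGR proteins and KLF6 bind GC-rich DNA through zinc fingers, NR4A1 is an orphan nuclear receptor that is induced in brown fat by adrenergic signalling, and IER2 is a short nuclear protein. Most of these mRNAs are short-lived, so their levels can change quickly with signalling in a tissue.

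The study asked how UCP1, the uncoupling protein that lets brown fat mitochondria release heat, and FGF21, a hormone secreted by liver and by stressed fat, affect weight gain on a rich diet at normal housing temperature. Male mice of 4 genotypes were compared, namely WT, FGF21 KO, UCP1 KO and mice lacking both genes (dKO, spelled UCP1/FGF12 double KO in the labels), all of them homozygous. Every group, WT included, was kept at 30°C from before weaning until, when 10 to 12 weeks old, it was moved to room temperature and a high-fat diet, and dissected 3 weeks later after 2 to 3 h without food. Each genotype gave 5 libraries per tissue, and no label tied libraries of different tissues to a mouse. Nothing said whether animals of a genotype were littermates, so the p-values measure the spread between these libraries.

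Between 28691377 and 50380696 reads per library fell on genes, with a median of 38022853, and no library of a tissue was identical to another. Fgf21 had at most 3 counts in any FGF21 KO or dKO library. Ucp1 mRNA was still counted in the UCP1 KO libraries, with 24291 to 60779 counts in BAT against 98548 to 216085 in WT. In iWAT its order was the opposite, at 102 to 734 CPM in UCP1 KO, 4 to 29.1 CPM in dKO and 2.64 to 16.7 CPM in WT. Counts per gene do not show which exons were read, so the Ucp1 level does not check the UCP1 KO and dKO labels. The fat cell marker Adipoq was at 922 to 2953 CPM, that is, counts scaled to a common library size, in iWAT and at 274 to 832 CPM in BAT. In iWAT, 9 of the 20 libraries carried a high level of lymph node genes, and in BAT some UCP1 KO and dKO libraries carried skeletal muscle genes. In iWAT the summed level of these muscle genes had medians of 42.6 to 80.1 CPM by genotype, but reached 19251 CPM in UCP1 KO, 11027 CPM in WT, 5163 CPM in FGF21 KO and 946 CPM in dKO. These marker levels are given beside the results they touch. In bulk tissue, fewer cells that express a gene and less of its RNA per cell cannot be told apart.

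The promoters of these genes are shown first, because the members are defined by how fast their promoters respond. Of the members, 7 could be matched to RefSeq windows that run from 250 bases before to 50 bases after a transcription start (GRCm38.p6), Ier2 and Egr3 were not matched, and the Egr1 promoter was not used here. The stretches upstream of the start are printed for Fos (chr12:85473640-85473889, plus strand), Fosb (chr7:19310052-19310295, minus strand), Junb (chr8:84978749-84978998, minus strand) and Nr4a1 (chr15:101266596-101266845, plus strand). For Egr2, stretches of 30 bases around the CArG box, the site of serum response factor, are printed for listed starts 2 (chr10:67537484-67537513) and 3 (chr10:67537787-67537816), both on the plus strand. Capitals mark the CArG box, TGACG or its reverse complement CGTCA (the shorter form of the CREB site TGACGTCA), the EGR motif GCGNGGGCG on either strand, and TATAAA on the gene's own strand.
Fos: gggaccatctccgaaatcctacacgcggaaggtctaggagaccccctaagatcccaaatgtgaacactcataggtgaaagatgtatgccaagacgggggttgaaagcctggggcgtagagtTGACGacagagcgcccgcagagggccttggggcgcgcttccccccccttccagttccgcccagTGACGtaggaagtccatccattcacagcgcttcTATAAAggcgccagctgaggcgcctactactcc
Fosb: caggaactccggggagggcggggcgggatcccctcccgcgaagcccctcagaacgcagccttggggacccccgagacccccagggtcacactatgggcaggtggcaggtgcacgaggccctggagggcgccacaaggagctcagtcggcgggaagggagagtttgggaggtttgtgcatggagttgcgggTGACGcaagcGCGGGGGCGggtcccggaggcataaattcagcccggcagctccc
Junb: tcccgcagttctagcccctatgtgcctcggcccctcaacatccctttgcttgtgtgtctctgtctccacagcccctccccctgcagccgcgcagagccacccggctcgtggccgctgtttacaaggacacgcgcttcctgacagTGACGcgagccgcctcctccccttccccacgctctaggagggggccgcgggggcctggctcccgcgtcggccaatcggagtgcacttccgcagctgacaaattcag
Nr4a1: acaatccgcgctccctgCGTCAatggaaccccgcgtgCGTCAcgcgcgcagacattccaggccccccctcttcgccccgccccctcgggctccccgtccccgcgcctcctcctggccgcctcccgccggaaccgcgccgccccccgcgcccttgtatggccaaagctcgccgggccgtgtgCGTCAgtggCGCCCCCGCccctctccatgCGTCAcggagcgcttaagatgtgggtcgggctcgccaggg
Egr2 (start 2): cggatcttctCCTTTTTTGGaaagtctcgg
Egr2 (start 3): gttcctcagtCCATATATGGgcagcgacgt

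The 250 bases upstream of every listed start were searched, and a gene counts once if any of its starts has a match. TGACG or CGTCA stood upstream of 5 of the 7 matched members, and of 19.8% of the 27025 genes with a window. Nr4a1 had 4 copies and Fos 2. The EGR motif was found in 2 members, Fosb and Nr4a1, and in 5.33% of all genes. A CArG box was found in 1 member, Egr2, which has 5 listed starts, and in 1.62% of all genes, and TATAAA in 1 member, Fos, and in 8.94% of all genes. The whole CREB site TGACGTCA, which holds both shorter forms, was in 0 members and in 1.77% of all genes, and the AP-1 site TGANTCA was in 0 members and in 7.82% of all genes. On either strand, GGGCGG, the core of the SP1 site, was in 6 members and in 35.4% of all genes, and CCGGAA, the core of the ETS site, in 2 members and in 13.6% of all genes. These cores are not marked above. A match describes these letters and no binding was measured. Bases farther upstream and the promoters of Ier2, Egr3 and Egr1 were not searched. A member without a match may therefore have the site elsewhere.

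Levels across the 4 tissues were compared on 1 common TMM scale over all 80 libraries. On this scale the scaling factors moved iWAT libraries by a median of 0.58 and liver libraries by a median of -0.42 in log2. Most genes differ between tissues, so a call of a member is read against a high background. Of 17611 genes, edgeR called 76.6% at an adjusted p under 0.01 between iWAT and BAT, 85.4% between iWAT and liver, 85.5% between iWAT and muscle, 80.4% between BAT and liver, 78.0% between BAT and muscle and 84.6% between liver and muscle. By their medians, Nr4a1 and Jun shared the same order of tissues, as did Fosb, Egr2 and Egr3, and Junb and Ier2, while Fos, Egr1 and Klf6 each had their own.

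By medians, Nr4a1 had the widest range of levels between tissues. Its median was 184 CPM in muscle (101 to 307), 75.1 CPM in BAT (13.5 to 296), 10.4 CPM in iWAT (4.21 to 31.3) and 2.53 CPM in liver (1.57 to 23.9). Muscle was above liver by 5.52 in log2 (SE 0.359, edgeR adjusted p = 3.05e-23), and muscle and BAT, next to each other in the order, were not told apart at the threshold (0.79 in log2, adjusted p = 0.011). Egr3 had a larger fitted difference, 6.31 in log2 for iWAT over liver, where it was nearly absent.

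Among the AP-1 genes, Jun, which pairs with FOS proteins or with itself, had medians of 44.2 CPM in muscle, 39.2 CPM in BAT, 20.6 CPM in iWAT and 11.1 CPM in liver. Muscle and BAT did not differ beyond their spread for Jun (adjusted p = 0.243, edgeR), and each lower step was called. Fos, the prototype of the class, was at 6.83 CPM in muscle, 5.18 CPM in iWAT, 2.42 CPM in BAT and 1.85 CPM in liver, and only its steps from liver to the other tissues were called. Fosb, a close relative of Fos, was low throughout. Its medians were 1.33 CPM in iWAT, 0.97 CPM in BAT, 0.565 CPM in muscle and 0.252 CPM in liver. The steps from BAT to muscle and from muscle to liver were called. The step from iWAT to BAT includes the UCP1 KO and dKO libraries of iWAT that chose Fosb, so it is a description. It was 0.74 in log2 over all genotypes. In WT alone, whose libraries did not choose Fosb, iWAT was above BAT by 0.08 (edgeR adjusted p = 0.901). Junb, which often restrains JUN, had medians of 12.3 CPM in liver, 8.8 CPM in iWAT, 6.38 CPM in BAT and 3.31 CPM in muscle.

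The EGR genes parted into different orders. Egr1 was highest in liver (35.1 CPM) and BAT (24.8 CPM), which did not differ beyond their spread (0.07 in log2, edgeR adjusted p = 0.845), and lower in iWAT (14 CPM) and muscle (7.45 CPM). Egr2 and Egr3 were instead highest in iWAT, at 5.11 CPM and 4.97 CPM, and nearly absent from liver, at 0.253 CPM and 0.0877 CPM. Egr3 in iWAT split with lymph node genes, as given below, so its median mixes libraries with and without that content. It ran from 0.703 to 23.9 CPM in iWAT and from 0.376 to 8.46 CPM in BAT. Ier2 was highest in liver (14.8 CPM) and lowest in muscle (2.96 CPM). Klf6, which is expressed in many resting cell types, was highest in iWAT (93.3 CPM), next in muscle (48.8 CPM) and BAT (47.1 CPM), which did not differ beyond their spread (adjusted p = 0.7, edgeR), and lowest in liver (14.2 CPM). The order of liver over iWAT for Egr1, Ier2 and Junb depended on the scaling: with library totals alone the log2 difference of iWAT from liver went from -0.99 to 0.11, from -1.06 to 0.07 and from -0.88 to 0.25. By median, library totals also put iWAT above BAT for Egr1 (24.3 against 22.9 CPM) and above muscle for Fos (9.09 against 5.71 CPM). They put BAT above muscle for Jun (42.1 against 36 CPM) and Klf6 (47.7 against 40.7 CPM).

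**Figure D1:**
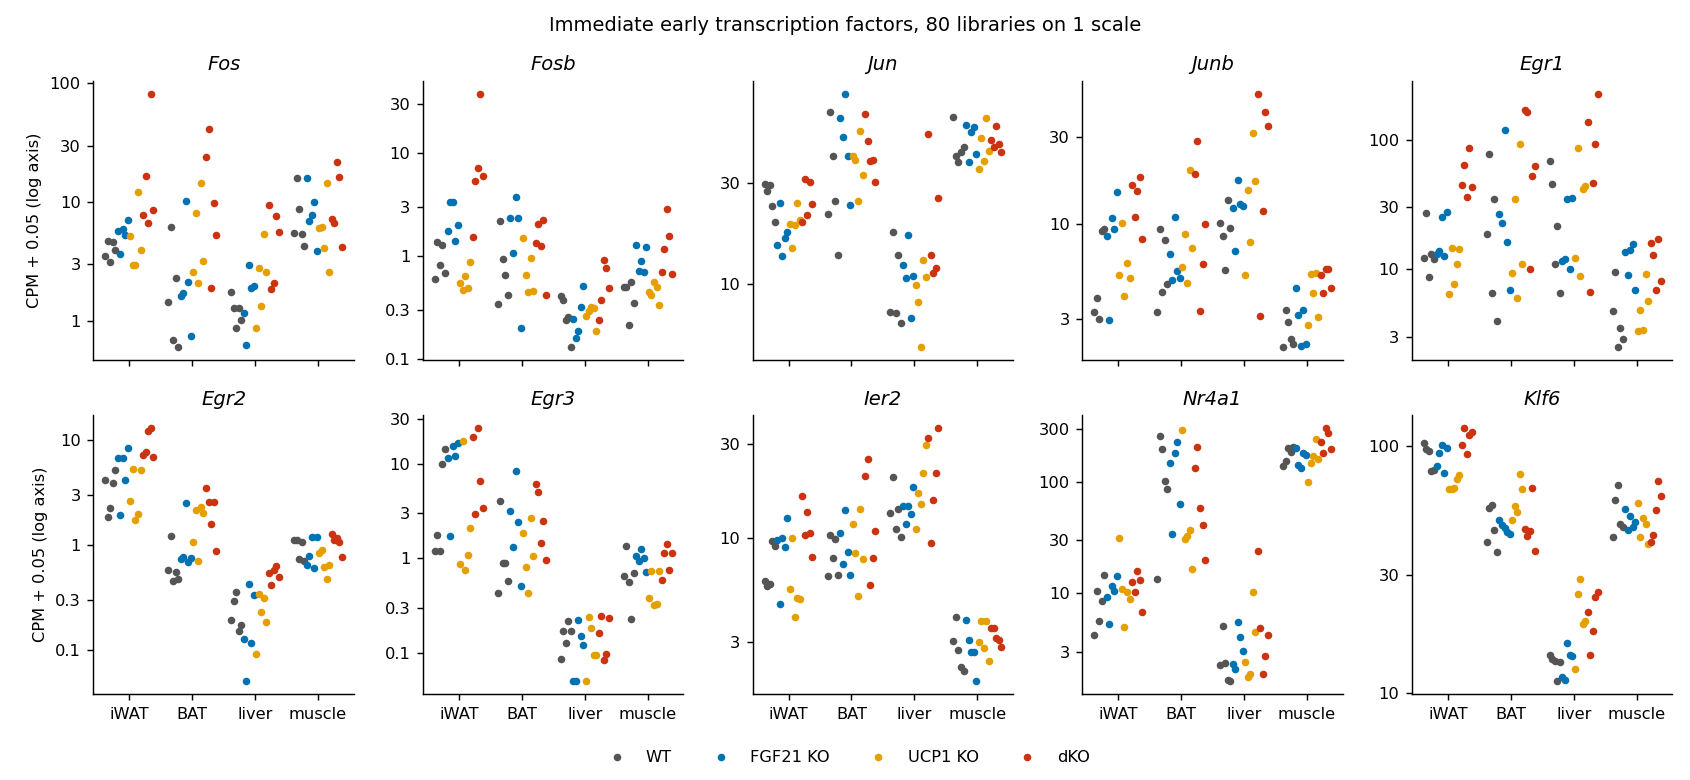
CPM of each member in the 80 libraries on the common TMM scale, plus 0.05, on a log axis, by tissue and coloured by genotype, with 1 point per library and 20 libraries per tissue. Nr4a1 spans from a median of 2.53 CPM in liver to 184 CPM in muscle, while Klf6 spans from 14.2 CPM in liver to 93.3 CPM in iWAT.

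Per kb of exon, which allows levels to be compared between genes, Klf6 led in iWAT with a median of 21.2 CPM per kb, Nr4a1 led in BAT and muscle with 21.4 and 52.3 CPM per kb, and Ier2 led in liver with 9.69 CPM per kb. Fosb was the lowest member in iWAT, BAT and muscle, at 0.212, 0.155 and 0.0905 CPM per kb. Among the AP-1 genes Jun had the highest median per kb in iWAT, BAT and muscle (6.46, 12.3 and 13.8 CPM per kb), and Junb had it in liver (5.37 CPM per kb).

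In iWAT, where the members were chosen, 3 of 10 passed the threshold in UCP1 KO against dKO, beside 0.466% of all genes, and this count is fixed by the choice. From here on, CPM are normalised within a tissue, and fold changes are log2 differences from the edgeR fit of its 20 libraries. Fosb was at 0.769, 0.645, 0.923, 0.674 and 1.27 CPM in UCP1 KO and at 2.35, 8.46, 11.4, 59 and 9.38 CPM in dKO. Egr1 was at 9.78, 22.9, 12.1, 16.9 and 22 CPM in UCP1 KO and at 70.9, 102, 57.1, 133 and 68.7 CPM in dKO. Klf6 was at 103, 104, 106, 113 and 118 CPM in UCP1 KO and at 159, 187, 148, 173 and 180 CPM in dKO. For all 3, the dKO libraries lay above the UCP1 KO libraries without overlap, as for 2.09% of all genes in either direction.

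The fitted differences of UCP1 KO from dKO were -4.40 for Fosb, -2.37 for Egr1 and -0.64 for Klf6, and these 3 lay inside the threshold. The members nearest to it on the outside were Egr2 at -1.51, Fos at -2.19 and Ier2 at -1.03. Up to 4 members passed with 1 library left out, and 5 by DESeq2 (3.13% of all genes). The median of the 10 members was -1.28 against -0.04 over all genes. The dKO replicate 4 library had the highest Fos (127 CPM), Fosb and Egr1 of the tissue, and it also had the highest mammary epithelium marker score among iWAT libraries. Without it the difference for Fos was -0.92. Fosb was at 59 CPM in this library, beside a dKO median of 9.38 CPM and a dKO mean of 18.1 CPM. Brown adipocyte genes moved with these groups too, their summed level being 317 to 1601 CPM in UCP1 KO, 23.7 to 102 CPM in dKO and 22.4 to 70.9 CPM in WT, and their part in the members' difference was not tested. Without UCP1 KO replicate 3, 0 members passed the threshold, and without dKO replicate 2, 1 did.

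The other iWAT comparisons with UCP1 KO or dKO share those libraries and are likewise a description. Against WT, UCP1 KO had 0 of 10 members called by edgeR (0.610% of all genes), 2 with an unadjusted p under 0.05 (14.7% of all genes) and 1 called by DESeq2 (3.49% of all genes). Klf6 in WT was at 161, 154, 152, 127 and 127 CPM, all above the UCP1 KO libraries, a gap that 3.83% of all genes had in either direction. Against WT, dKO had 0 of 10 called by edgeR (0.0173% of all genes), 7 with an unadjusted p under 0.05 (5.90% of all genes) and 3 called by DESeq2 (0.0878% of all genes). Fosb (3.66), Fos (2.59), Egr1 (1.89) and Egr2 (1.44) were higher in dKO than in WT in every library, and 1.17% of all genes had no overlap in either direction. The differences for Fosb and Fos were widened by dKO replicate 4. It was at 59 CPM for Fosb (dKO median 9.38 CPM) and at 127 CPM for Fos (dKO median 13.6 CPM).

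The comparison of FGF21 KO with WT in iWAT used none of the libraries that chose the members. By edgeR 0 of 10 members were called (0.00575% of all genes), 2 had an unadjusted p under 0.05 (17.4% of all genes), and DESeq2 called 0 (0.250% of all genes). Lymph node genes were high in 4 of the 5 FGF21 KO libraries and in 2 of the 5 WT libraries, with summed levels of 9.06 to 2059 CPM and 9.68 to 1237 CPM. Fosb was at 2.67, 5.2, 5.18, 2.19 and 3.09 CPM in FGF21 KO and at 0.859, 2.08, 1.21, 2.01 and 1.02 CPM in WT. The groups did not overlap, which held for 2.71% of all genes, and the difference of 1.35 (SE 0.592, edgeR adjusted p = 0.268) did not pass the threshold. Jun was the only other member with a small unadjusted p, at -0.57 (adjusted p = 0.236). The median of the members was 0.40 against -0.01 over all genes.

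**Figure D2:**
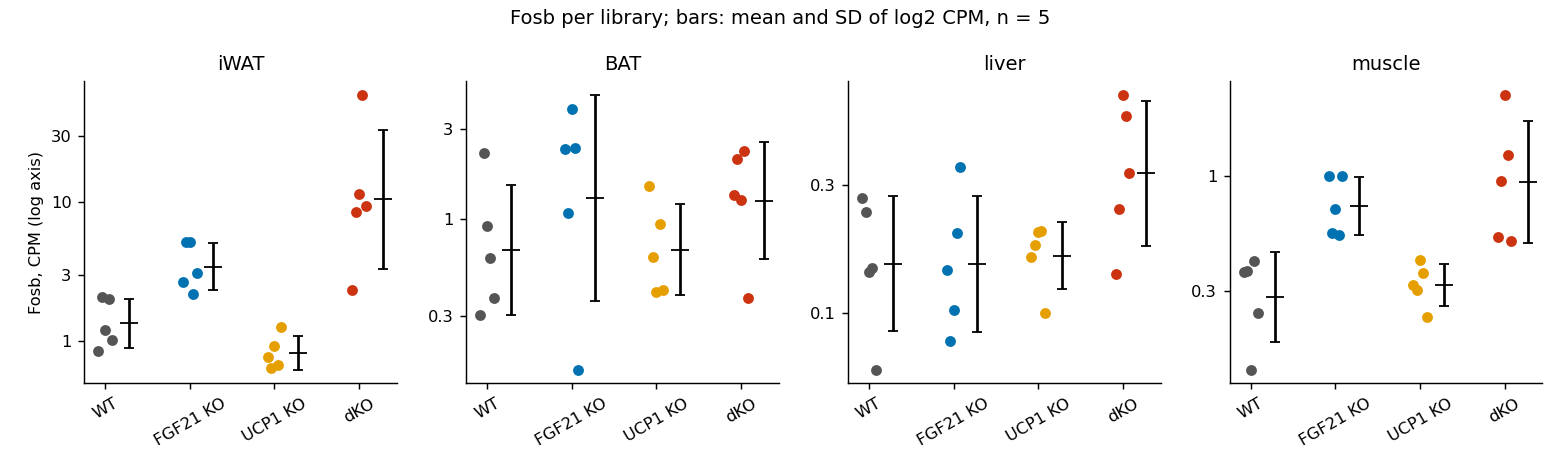
Fosb CPM in each library by tissue and genotype, on a log axis, with 5 libraries per group as points and bars for the mean and SD of log2 CPM. In iWAT and in muscle, every FGF21 KO and dKO library lies above every WT and UCP1 KO library, and in BAT and liver the groups overlap.

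Libraries with and without Fgf21 were also compared over both UCP1 states, a comparison added after seeing the data. Here, with Fgf21 means that the gene is intact, not that its mRNA was found. In muscle its mRNA was at 0 to 3 counts in WT and at 0 to 10 counts in UCP1 KO. In iWAT and muscle, the 10 libraries without Fgf21 each had more Fosb than any of the 10 with it. The iWAT libraries include the 10 that chose the members, so there it is a description, with no test. It held for 6 of 17380 genes, which is 0.0345%, and Fosb differed by 2.88. In muscle, none of whose libraries chose the members, it held for 7 of 15114 genes, which is 0.0463%.

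In muscle, Fosb was at 0.366, 0.371, 0.133, 0.412 and 0.24 CPM in WT and at 0.322, 0.304, 0.415, 0.365 and 0.23 CPM in UCP1 KO. In FGF21 KO it was at 0.993, 0.55, 0.706, 0.538 and 0.998 CPM, and in dKO at 0.527, 0.943, 2.32, 1.24 and 0.507 CPM. The highest library with Fgf21 was at 0.415 CPM and the lowest without it at 0.507 CPM, so the gap was narrow and all levels were low. The difference was 1.53 in log2 (SE 0.271, edgeR adjusted p = 0.0134), short of the threshold that 0.0595% of all genes passed. DESeq2 called it, as it did 1.54% of all genes.

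Fosb lies on chromosome 7 (GRCm38, 19302696 to 19310051, minus strand), 26.304 Mb from Fgf21 on the same chromosome. The other genes without overlap in muscle included Rasip1 and Ntn5, 0.012 and 0.0685 Mb from Fgf21, and in iWAT Car11, 0.0844 Mb from it, all lower without Fgf21. They were named after their values were seen, and the part of position in the result was not tested. Of 11 cell type marker scores, 0 separated all libraries with Fgf21 from all without it in either tissue, although single genotypes differed in some. These scores included those of each tissue's own cells. Few genes pass so strict a split, so it cannot decide the part of cell content, which was not tested. In muscle, macrophage genes summed to 102 to 144 CPM in WT and 125 to 179 CPM in UCP1 KO. In FGF21 KO they summed to 137 to 185 CPM, and in dKO to 132 to 187 CPM.

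In BAT and liver Fosb did not separate the libraries in this way. In BAT its levels ran from 0.304 to 2.25 CPM in WT, from 0.156 to 3.84 CPM in FGF21 KO, from 0.407 to 1.5 CPM in UCP1 KO and from 0.376 to 2.29 CPM in dKO. The difference without Fgf21 was 1.03 in BAT (edgeR adjusted p = 0.281) and 0.58 in liver (adjusted p = 0.545).

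Lymph node content moved with other members in iWAT. The 9 libraries that scored high for lymph node genes were WT replicates 4 and 5, UCP1 KO replicate 2, dKO replicates 1 and 3, and FGF21 KO replicates 1, 3, 4 and 5, so 4 of the 5 FGF21 KO libraries were among them. Egr3, which is strongly induced in stimulated lymphocytes, was at 15.9 to 37.9 CPM in these and at 1.11 to 10.3 CPM in the other 11, without overlap. Ier2 was at 14.5 to 25.8 CPM against 6.24 to 16.5 CPM, and Junb at 13.4 to 25.5 CPM against 4.59 to 28.2 CPM.

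The values of Fosb, Egr1 and Klf6 on either side of this split include those that chose them and are given as a description. Among the libraries low in lymph node genes Fosb was at 0.674 to 2.08 CPM with Fgf21 and at 5.2 to 59 CPM without. The only FGF21 KO library among these was replicate 2, at 5.2 CPM of Fosb. Among the high ones it was at 0.645 to 2.01 CPM with Fgf21 and at 2.19 to 11.4 CPM without. Egr1 in the low libraries was at 9.78 to 22 CPM in UCP1 KO and at 68.7 to 133 CPM in dKO, and in the high ones at 22.9 CPM in the 1 UCP1 KO library and at 57.1 and 70.9 CPM in the 2 dKO libraries. Klf6 showed the same order, with 103 to 118 against 173 to 187 CPM in the low libraries.

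**Figure D3:**
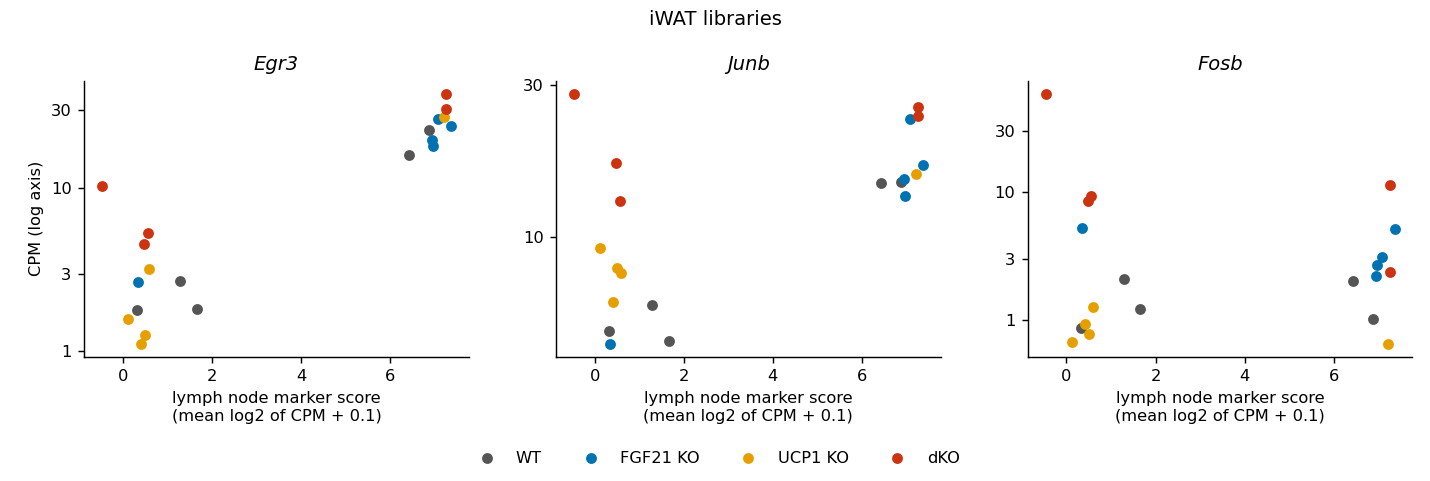
CPM of Egr3, Junb and Fosb in the 20 iWAT libraries, on a log axis, against the lymph node marker score (mean log2 of CPM plus 0.1 over its genes), coloured by genotype. Egr3 splits along the score, at 1.11 to 10.3 CPM and at 15.9 to 37.9 CPM. Fosb is higher in FGF21 KO and dKO libraries than in the others on both sides. On the low side, replicate 2 is the only FGF21 KO library, and the dKO libraries are among those that chose Fosb.

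In BAT, loss of UCP1 changes much of the transcriptome, and 1 of the 10 members was among the genes called. In UCP1 KO against WT, edgeR called 0 of 10 members and 25.2% of all genes, 2 members had an unadjusted p under 0.05 (48.9% of all genes), and DESeq2 called 1 (30.3% of all genes). In dKO against WT, 1 of 10 was called beside 21.1% of all genes. That gene was Egr2, a zinc finger factor also known as an early switch in fat cell differentiation. In that comparison 9 of 10 members were higher, as were 50.7% of all genes, and their median was 0.97 against 0.01.

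Egr2 in BAT was at 0.547, 1.19, 0.419, 0.52 and 0.434 CPM in WT and at 3.5, 2.59, 1.58, 2.65 and 0.857 CPM in dKO. It was at 1.05, 2.15, 0.672, 2.28 and 2.01 CPM in UCP1 KO and at 0.703, 0.74, 2.55, 0.657 and 0.719 CPM in FGF21 KO. All but 1 dKO library lay above all WT libraries. The gene rose by 1.84 in dKO against WT (SE 0.473, edgeR adjusted p = 0.00579), and it was higher by 1.39 in UCP1 KO without passing the threshold (adjusted p = 0.0247). Over both FGF21 states, it rose by 1.23 with the loss of UCP1 (SE 0.327, adjusted p = 0.00414), a comparison in which 38.4% of all genes were called.

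The summed level of 10 skeletal muscle genes in BAT moved with the same groups. It was at 24.7 to 110 CPM in WT and 27 to 388 CPM in FGF21 KO, but reached 9810 CPM in UCP1 KO and 4878 CPM in dKO, whose lowest libraries were at 65.1 and 99.3 CPM. Macrophage genes moved with them as well, at a summed level of 96 to 119 CPM in WT, 90.6 to 172 CPM in FGF21 KO, 149 to 406 CPM in UCP1 KO and 155 to 246 CPM in dKO, and their part was not tested. With the muscle score in the model, Egr2 was no longer called in dKO against WT (edgeR adjusted p = 0.0325) or over both FGF21 states (adjusted p = 0.0321). In dKO against WT it was not called either without any 1 of WT replicates 1, 3, 4 and 5 and dKO replicates 1, 2 and 4, with an adjusted p of up to 0.0177.

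Fos in BAT was at 1.46, 6.39, 0.664, 2.34 and 0.579 CPM in WT and at 24.6, 42.7, 1.93, 10.3 and 5.41 CPM in dKO. The groups overlapped, and the difference of 2.90 (SE 0.891, edgeR adjusted p = 0.0161) did not pass the threshold. Nr4a1 ranged from 14 to 268 CPM in WT alone, and its difference of -0.53 in dKO against WT (SE 0.815) cannot be told from 0 at this spread. In FGF21 KO against WT, edgeR called 0 of 10 members and 0% of all genes, 0 members had an unadjusted p under 0.05 (8.55% of all genes), and DESeq2 called 0 (0.211% of all genes). In dKO against FGF21 KO 0 of 10 were called (13.5% of all genes), DESeq2 called 0 (19.5% of all genes), and 2 members had an unadjusted p under 0.05, as did 6287 of 15729 genes. They were Fos at 2.34 (edgeR adjusted p = 0.0493) and Egr2 at 1.06 (adjusted p = 0.0854).

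Related early response genes were taken as lists drawn up beside the members, and in BAT their called genes are read against the 25.2% of all genes called in UCP1 KO against WT. There, 6 of 11 further AP-1 and related bZIP genes rose and 0 fell, with a list median of 1.17 against 0.01 over all genes. The shares of the lists of other early factors and other early genes were at or below that of all genes. Of 17 other early transcription factors 3 rose and 0 fell, and of 24 other early response genes 5 rose and 1, Rhob, which encodes a small GTPase, fell. Atf3 and Maff stand on both of the first lists. The corepressor Nab1, which binds EGR proteins, fell by 0.22, and 0 of 8 upstream factors and 0 of 8 heat shock genes were called by edgeR. In dKO against WT, where 21.1% of all genes were called, the counts were 3 risen of 11, 2 risen and 1 fallen of 17, and 5 risen and 1 fallen of 24.

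The 5 list genes with the smallest adjusted p in each comparison are given. Gadd45a, which is induced on growth arrest and DNA damage, was at 2.06 CPM in WT (1.29 to 3.13) and at 45.4 CPM in UCP1 KO (11.7 to 74.9), a rise of 4.46 (edgeR adjusted p = 3.65e-07). Atf4, the central factor of the integrated stress response, was at 88.7 CPM (65.3 to 108) against 209 CPM (178 to 255), and rose by 1.24 (adjusted p = 1.18e-06). Atf3, a stress-induced factor of the same family, was at 3.51 CPM (1.25 to 7.13) against 52 CPM (14 to 147), and rose by 3.91 (adjusted p = 8.05e-05). For none of these 3 genes did the groups overlap. The macrophage levels above differed between the same groups without overlap.

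Mafg, a small MAF protein, rose by 0.58 (edgeR adjusted p = 0.000125), and Ppp1r15a, a phosphatase subunit that helps to end that response, rose by 1.91 (adjusted p = 0.000152). In dKO against WT, Gadd45a rose by 3.78, Atf4 by 1.13, Mafg by 0.61 and Atf3 by 3.06, and Plk3, a stress-induced kinase, rose by 2.00 (adjusted p = 0.000379, edgeR). In liver, muscle and the comparison of FGF21 KO with WT in iWAT, 0 genes of the lists on AP-1, other early factors and other early genes were called by edgeR.

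In liver, 0 of 8 members were called by edgeR in any of the 6 comparisons of genotypes (0.00694% to 0.229% of all genes, and 0.0972% in UCP1 KO against FGF21 KO), and all 8 were higher in dKO than in WT. In that comparison 49.0% of all genes were higher, the median of the members was 1.33 against -0.00 over all genes, and 0.0416% of genes were called. All 8 had an unadjusted p under 0.05, as did 12.1% of all genes, and DESeq2 called 1, Fos, and 0.639% of all genes. Marker genes moved with these groups in liver: the summed level of Krt8, Krt18, Epcam and Csn3 was 253 to 310 CPM in WT, 317 to 446 CPM in UCP1 KO and 338 to 494 CPM in dKO, and that of skeletal muscle genes 34.5 to 145 CPM in WT and 18.8 to 45.8 CPM in dKO. Their part in the result was not tested. Since the members vary together in liver, these 8 do not count as separate observations.

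Fos in liver was at 1.29, 0.923, 0.626, 0.908 and 0.738 CPM in WT and at 7.04, 1.37, 1.53, 5.77 and 4.2 CPM in dKO. Every dKO library lay above every WT library, as for 2.15% of all genes, although 2 dKO libraries stood just above the WT range. The difference was 2.14 (SE 0.511, edgeR adjusted p = 0.0733). Junb was higher by 1.59 and Egr1 by 1.74 without passing the threshold, and Egr1 ran from 4.9 to 171 CPM within dKO.

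Klf6 in liver was at 10.6, 10.2, 10.1, 8.08 and 10.2 CPM in WT and at 8.64, 8.16, 11.9, 10.6 and 10.7 CPM in FGF21 KO. In UCP1 KO it was at 9.69, 18.9, 21.4, 14.4 and 14.5 CPM, and in dKO at 15.7, 10.6, 13.1, 18.5 and 19.2 CPM. Most UCP1 KO and dKO libraries lay above all WT and FGF21 KO libraries, and the difference of 0.65 (SE 0.13, edgeR adjusted p = 0.0277) missed the threshold that 0.104% of genes passed. In FGF21 KO against WT in liver 0 of 8 were called (0.229% of all genes), 0 had an unadjusted p under 0.05 (7.54% of all genes), and DESeq2 called 0 (0.382% of all genes). In UCP1 KO against WT 0 of 8 were called (0.0694% of all genes), 2 had an unadjusted p under 0.05 (10.2% of all genes), and DESeq2 called 0 (0.778% of all genes).

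In muscle, 0 of 10 members were called by edgeR in any of the 6 comparisons (0% to 0.0595% of all genes). In dKO against WT, where 0.0529% of all genes were called, all 10 were higher, as were 51.4% of all genes, with a median of 0.47 against 0.00. In the same muscle groups neutrophil genes summed to 0.158 to 0.482 CPM in WT and 0.297 to 37.6 CPM in dKO, and macrophage genes to 102 to 144 CPM and 132 to 187 CPM, and their part was not tested. Of the members, 4 had an unadjusted p under 0.05 (12.2% of all genes), and DESeq2 called 2 (0.471% of all genes). In UCP1 KO against WT 0 of 10 were called (0.0265% of all genes), 1 had an unadjusted p under 0.05 (9.80% of all genes), and DESeq2 called 0 (0.187% of all genes).

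Junb in muscle was at 1.7, 2.71, 2.34, 1.87 and 1.73 CPM in WT and at 4.19, 3.43, 4.6, 4.56 and 3.6 CPM in dKO. The groups did not overlap, nor did those of Fosb, which held for 2.69% of all genes. Junb was higher by 0.97 in dKO (SE 0.211, edgeR adjusted p = 0.0591), and by 0.70 with the loss of UCP1 over both FGF21 states (adjusted p = 0.0597, beside 0.106% of genes called). It lies 1.676 Mb from Ucp1 on chromosome 8 (84974484 to 84978718, minus strand), and 173 of its exon bases overlap Prdx2 on the other strand, whose reads cannot be told apart if the counting ignored strand.

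Egr1 in muscle was at 3.85, 7.81, 2.02, 2.81 and 2.28 CPM in WT and at 11, 7.44, 11.7, 12.9 and 5.88 CPM in FGF21 KO. In UCP1 KO it was at 2.68, 3.95, 2.73, 7.46 and 4.57 CPM, and in dKO at 13, 10.7, 5.62, 14.1 and 6.57 CPM. The ranges overlapped between 5.62 and 7.81 CPM. The difference without Fgf21 was 1.30 (SE 0.256, edgeR adjusted p = 0.0241), and in FGF21 KO against WT it was 1.37 (adjusted p = 0.0703). In that comparison 0 of 10 members were called (0.00662% of all genes), 2 had an unadjusted p under 0.05 (12.9% of all genes), and DESeq2 called 0 (1.27% of all genes).

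**Figure D4:**
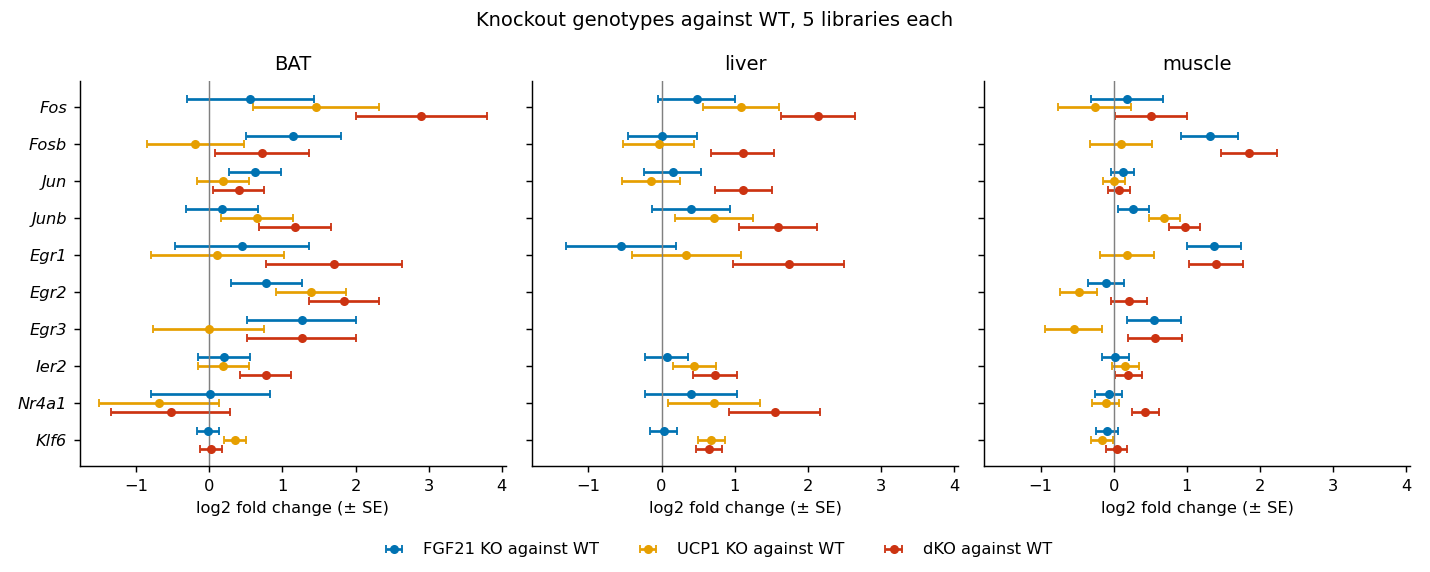
Log2 difference of each member from WT in FGF21 KO, UCP1 KO and dKO, in BAT, liver and muscle, from the edgeR fits with SE bars (5 libraries per group). In dKO against WT, 9 of 10 members in BAT, 8 of 8 in liver and 10 of 10 in muscle lie above 0, and only Egr2 in BAT passed the threshold.

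By the mean of log2 CPM, the dKO group was the highest of the 4 genotypes for 8 of 10 iWAT members, 6 of 10 BAT members, 7 of 8 liver members and 7 of 10 muscle members. Over all genes tested the shares were 12.4%, 22.2%, 23.4% and 22.8%. By the mean of CPM itself, a scale added after seeing the data, it was the highest for 7 iWAT, 6 BAT, 7 liver and 9 muscle members. On either scale it was the lowest for 0 members in each tissue. The count in iWAT is partly fixed by how the members were chosen. The interaction of the UCP1 and FGF21 losses, which asks whether the effect of losing both differs from the sum of the single losses, called 0 members and 0% of all genes in each tissue by edgeR. DESeq2 called 0 members in BAT (0.00636% of all genes), liver (0.0625%) and muscle (0%), and an unadjusted p under 0.05 was seen for 2 members in muscle (7.48% of all genes), 0 in liver (5.16%) and 0 in BAT (5.37%). The iWAT interaction is built from the libraries that chose the members. There DESeq2 passed 1 member (0.363% of all genes) and 4 had an unadjusted p under 0.05 (9.98%), and nothing is read from these counts.

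The spread of the members within a genotype was ranked among all genes tested in a tissue, whatever their level. The SD was above the median of all genes for all members tested in BAT, liver and muscle and for 8 of 10 in iWAT. Above the 90th percentile it lay for 7 of 10 members in BAT, 6 of 8 in liver, 4 of 10 in muscle and 1 of 10 in iWAT. The members below the median in iWAT were Jun, at the 32.5th percentile, and Klf6, at the 8.5th.

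Members varied together from library to library in BAT. Correlations were taken over the 20 libraries on deviations of log2 CPM from the genotype mean, with libraries shuffled within genotypes. The correlation with Fos was 0.96 for Egr1 (Spearman 0.93, permutation p = 1e-05, adjusted over 34 relations 0.00017, the smallest p that the resampling gives), 0.86 for Junb (Spearman 0.75, permutation p = 5e-05) and 0.80 for Ier2 (Spearman 0.71, permutation p = 0.00026). Without the 2 libraries farthest from the median of Fos these were 0.96, 0.83 and 0.74. Nr4a1 (0.30, Spearman 0.30, adjusted permutation p = 0.308) and Klf6 (0.29, Spearman 0.37, adjusted permutation p = 0.359) did not follow Fos. Of the 9 relations 6 had an adjusted p under 0.05, and their median was 0.78.

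In liver Junb followed Fos most closely (r = 0.88, Spearman 0.91, permutation p = 1e-05, 0.88 without the 2 farthest libraries), then Egr1 (0.72, Spearman 0.70, permutation p = 0.0007). In muscle Junb (0.72, Spearman 0.69, permutation p = 0.00036) and Ier2 (0.68, Spearman 0.63, permutation p = 0.00115) did, and Nr4a1, the most abundant member there, did not pass (0.41, permutation p = 0.12). The iWAT libraries form the lymph node clusters above, so correlations were taken within each. Among the 11 libraries low in lymph node genes, Junb had the highest correlation with Fos (r = 0.97, Spearman 0.95, exact p = 0.00116, adjusted over 18 relations 0.0208, and 0.96 without the 2 farthest libraries). Among the 9 high ones Ier2 had it (r = 0.95, Spearman 0.88, exact p = 0.0104, the smallest that 96 shuffles allow, adjusted 0.0938).

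**Figure D5:**
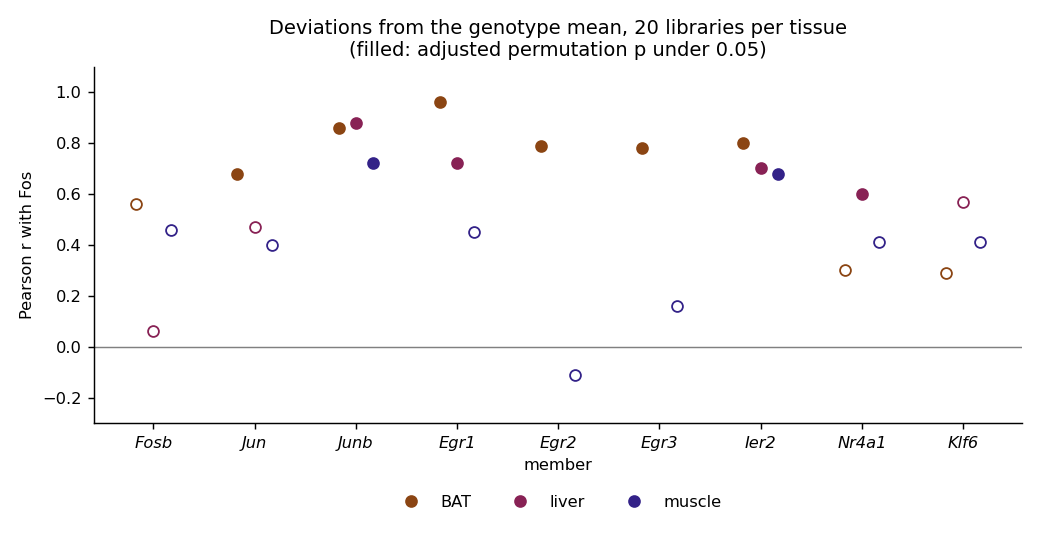
Pearson correlation of each member with Fos over the 20 libraries of BAT, liver and muscle, on deviations of log2 CPM from the genotype mean, filled where the adjusted permutation p is under 0.05. Egr1 reaches 0.96 in BAT, Junb 0.88 in liver and 0.72 in muscle, while Nr4a1 and Klf6 stay at 0.30 and 0.29 in BAT.

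Ranked by the median over the 4 tissues of its correlation with Fos, on the same deviations, the gene most like Fos among the 13128 tested in every tissue was a member, Junb (median r = 0.79). It was followed by Dusp1, a phosphatase that acts on MAP kinases, Zfp36, which destabilises mRNAs, and Btg2, and then by Ier2, Arl13b, Fosl2, a FOS family member, Amotl2 and Nuak2. Not all of them followed Fos in every tissue, since r was -0.06 for Arl13b in BAT, and -0.14 for Btg2, -0.16 for Amotl2 and -0.10 for Nuak2 in iWAT. Egr1 had rank 10 (median r = 0.59), Fosb rank 17, Jun rank 57, Nr4a1 rank 181 and Klf6 rank 185. The ranking uses all 20 iWAT libraries together, where r with Fos was -0.03 for Ier2 and 0.28 for Junb, against 0.60 and 0.97 in the libraries low in lymph node genes and 0.95 and 0.74 in the high ones. These ranks describe shared variation between libraries and carry no test.

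Ier2 and Junb lie 1.363 and 1.676 Mb from Ucp1 on chromosome 8. Of 12 tested genes that neighbour them, UCP1 KO differed from WT (edgeR) for 2 in iWAT, Mri1 and Cacna1a (0.610% of all genes), 5 in BAT (25.2%), 2 in liver (0.0694%) and 1 in muscle, Ccdc130 (0.0265%). In dKO against FGF21 KO, 2 were called in iWAT (0.0115% of all genes), 4 in BAT (13.5%), 0 in muscle (0.0595%) and 0 in liver (0.00694%). Ier2 and Junb themselves were called in neither comparison.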

How the data were processed

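RNA was extracted from iWAT, BAT, liver and muscle, and poly(A)-selected, strand-specific libraries were sequenced. The authors aligned reads to mm10 with STAR and counted them per gene of the UCSC known gene annotation with HTSeq; the strand setting of the counting is not given in the sources used here. The deposited values are read counts, not normalized, with 1 library per file and 80 in all (5 per genotype and tissue). A row that names no gene held at most 3.42e-05% of a library and was left out.

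Counts were fitted per tissue with the quasi-likelihood F test of edgeR 4.0.16 (R 4.3.3) on TMM factors, with 1 mean per genotype. Genes needed a maximum above 15, a sum above 75 and at most 10 libraries at 0, which left 17380 genes to test (iWAT), 15729 (BAT), 14407 (liver) and 15114 (muscle). P-values were adjusted by Benjamini-Hochberg over these genes, and an adjusted p under 0.01 was called. Log2 CPM used a prior count of 2, and marker scores are means of log2 CPM plus 0.1. Tissues were compared in 1 fit of the 80 libraries. Correlations used 100000 shuffles within genotypes, or all of them within the iWAT clusters. With 5 libraries against 5, an exact permutation test cannot give a p under 0.00794. Code was tested on simulated data.

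The members and lists were chosen with earlier results of these data known. Named are the members in every tissue, at most 5 called list genes per comparison by smallest adjusted p, the 10 genes most like Fos, and the 3 nearest tested genes on each side of Ier2 and Junb, of which those called in iWAT and muscle. Rhob and Nab1 were named after their values were seen. Replicates were numbered within a group in the order of the sample entries, so a number links no libraries. Alternatives were DESeq2 1.42.0, RLE factors, other filters, an adjusted p under 0.05, skeletal muscle or lymph node scores as covariates, fits of only the libraries low in lymph node genes or of only the 2 genotypes compared, and each library left out. Chosen after seeing the data were the comparisons over both states of the other gene, library totals without scaling, leaving out iWAT dKO replicate 4, and correlations within the lymph node clusters. Promoter windows are from RefSeq (GRCm38.p6) and gene positions from GENCODE on GRCm38.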

Additional observations from a re-analysis of the deposited data

Results flagged for a closer look

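Of 152 groups of 5 libraries, 5 had 1 library far from the others in the level of a member. By chance about 1 group in 20 would. Egr3 in iWAT was at 2.66 CPM in FGF21 KO replicate 2 against 18.2 to 26.5 CPM in the others of that genotype, and this was its only library low in lymph node genes. Egr2 in BAT was at 1.19 CPM in WT replicate 2 against 0.419 to 0.547 CPM, and at 2.55 CPM in FGF21 KO replicate 3 against 0.657 to 0.74 CPM. Both were also the libraries with the highest Fos of their group. Nr4a1 in BAT was at 304 CPM in UCP1 KO replicate 1 against 16.9 to 38 CPM in the others. Klf6 in liver was at 8.08 CPM in WT replicate 4 against 10.1 to 10.6 CPM.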

How the results depend on the processing

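Changes in the number of members called are given beside the number by edgeR at 0.01. Those in iWAT with UCP1 KO or dKO libraries are a description. Except for DESeq2, the shares of all genes under the settings below were not computed, and nothing is read from those counts. DESeq2 called more in iWAT (4 genotypes 5 against 3, UCP1 KO against WT 1 against 0, dKO against WT 3 against 0, UCP1 KO against dKO 5 against 3, UCP1 KO against FGF21 KO 2 against 0, interaction 1 against 0, FGF21 loss 4 against 1), in BAT (4 genotypes 2 against 0, UCP1 KO against WT 1 against 0, dKO against WT 2 against 1, UCP1 loss 2 against 1), in liver (4 genotypes 2, dKO against WT 1 and UCP1 loss 2, each against 0) and in muscle (4 genotypes 3, dKO against WT 2, FGF21 loss 2 and UCP1 loss 1, each against 0). In iWAT, DESeq2 called 7.39% of all genes over 4 genotypes and 3.13% in UCP1 KO against dKO. It called 9.21% in UCP1 KO against FGF21 KO and 3.32% for FGF21 loss. Beside 2 members each in BAT, it called 38.0% over 4 genotypes, 27.0% in dKO against WT and 42.3% for UCP1 loss. Over 4 genotypes and for UCP1 loss it called 1.34% and 0.736% in liver, and 2.41% and 0.255% in muscle. The other DESeq2 shares stand with the results above. With lymph node content in the model, iWAT had 6 over 4 genotypes, 2 in UCP1 KO against WT, 5 in UCP1 KO against dKO, 1 in UCP1 KO against FGF21 KO, 1 in the interaction and 4 for FGF21 loss. With only the libraries low in lymph node genes, UCP1 KO against WT had 1 and FGF21 loss 0. With muscle content in the model, FGF21 loss in iWAT and dKO against WT and UCP1 loss in BAT each had 0. Fitting only UCP1 KO and dKO in iWAT left 0 of 3, with 10 libraries. RLE factors and the filter over 80 libraries each gave 1 in UCP1 KO against FGF21 KO.

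At an adjusted p under 0.05, iWAT had 1 in UCP1 KO against WT, 2 in UCP1 KO against FGF21 KO and 3 for FGF21 loss, BAT had 2 over 4 genotypes, 1 in UCP1 KO against WT, 2 in dKO against WT, 1 in dKO against FGF21 KO and 2 for UCP1 loss, liver had 1 for UCP1 loss, and muscle had 1 over 4 genotypes, 1 in dKO against WT and 2 for FGF21 loss. With 1 library left out, the counts ran from 2 to 3 over 4 genotypes, 0 to 1 in dKO against WT, 0 to 4 in UCP1 KO against dKO, 0 to 1 in UCP1 KO against FGF21 KO and 0 to 3 for FGF21 loss in iWAT. In BAT they ran from 0 to 2 over 4 genotypes, 0 to 1 in UCP1 KO against WT, 0 to 2 in dKO against WT, 0 to 1 in dKO against FGF21 KO and 1 to 2 for UCP1 loss, in liver from 0 to 1 for UCP1 loss, and in muscle from 0 to 2 for FGF21 loss. Causes were not tested. No named genotype difference changed direction.

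Between tissues, WT groups alone gave 4 members for iWAT against BAT, 6 against liver and 5 against muscle, and 2 for BAT against muscle, which had 8 at an adjusted p under 0.05. The share of all genes was not computed for the WT groups alone or at that threshold, so these counts have no background. With library totals the iWAT against liver difference reversed for Egr1 (0.11), Ier2 (0.07) and Junb (0.25). The median correlation with Fos was 0.49 in the iWAT libraries low in lymph node genes. No paired analysis was possible because the labels carry neither replicate numbers nor links between libraries and mice. The p-values of the tissue comparisons treat libraries of 1 mouse as separate.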

Other observations

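Heat shock genes are induced in many cells by the same stresses as immediate early genes, and the list here includes the mitochondrial chaperones Hspd1 and Hspe1. In UCP1 KO against WT in iWAT all 8 of them were higher, as were 45.5% of all genes, with a median of 0.92 in log2 against -0.03 over all genes. By edgeR 0 of the 8 were called beside 0.610% of all genes, and 5 had an unadjusted p under 0.05, as did 14.7% of all genes. Brown adipocyte genes summed to 317 to 1601 CPM in UCP1 KO and to 22.4 to 70.9 CPM in WT, and their part was not tested. In the same comparison 8 were higher in liver (median 0.52, 49.9% of all genes higher), 8 in muscle (0.25, 50.8%) and 6 in BAT (0.09, 50.9%). There 0 were called, and 3, 0 and 1 had an unadjusted p under 0.05, beside 10.2%, 9.80% and 48.9% of all genes.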
